A study of Homo sapiens with 6 samples.

Results

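HNF4A, FOXA1, FOXA2, FOXA3, ONECUT1, CEBPA, PROX1 and NR1H4 are transcription factors that define hepatocytes. They were followed in cells that the labels name HepG2 (an established human liver tumour line), through every probe set that the HG-U133 Plus 2.0 annotation maps to a single symbol among these 8. The annotation used here gave 12 such probe sets for 6 of the 8 genes, out of 41091 probe sets naming 1 gene and 19775 genes in all. HNF4A and NR1H4 had no probe set under this rule and were not analysed here. The cells were transfected by a lipid reagent with either a negative control siRNA (3 arrays) or an siRNA against RNF43 (3 arrays), and total RNA was taken 48 h later. The RNF43 protein, a ubiquitin ligase of the cell membrane, dampens the Wnt pathway. Arrays of a group are biological replicates by their titles, which name no separate cultures, and p-values thus cover only the spread among these arrays, which may be technical.

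Hepatocyte identity is held by a network of factors that bind each other's genes and the genes of plasma proteins, bile acid handling and gluconeogenesis. FOXA proteins open closed chromatin at liver enhancers, HNF4A and ONECUT1 act with them from early liver development on, and PROX1 marks the first hepatoblasts. CEBPA comes to full level in mature hepatocytes, where it holds back proliferation, and NR1H4 is the bile acid receptor FXR. HepG2 is commonly used as a model because it is known to keep much of this program. On these arrays the markers go against that label. Of 20 measured hepatocyte markers 17, ALB among them, were not above the background that olfactory receptor probe sets gave. Above it were 8 of 12 fibroblast and stellate cell markers and 4 of 8 bile duct and progenitor markers, beside 51.9% of all genes. KRT7 and CD24 were among the latter markers, and these counts do not name the cell type. The cells are therefore called cells labelled HepG2, and the levels below describe the factors in them, not in HepG2 cells of known identity.

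The perturbation is shown by the guide strands of the siRNAs, as the labels give them 5′ to 3′, with the seed (bases 2 to 8), which leads target pairing, in capitals.
RNF43 siRNA, antisense: aUAAUAGCuuucuguucugtt
Negative control siRNA, antisense: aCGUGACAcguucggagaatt

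RNF43 itself, read by 218704_at, went against the label. Its log2 signal was 7.65, 7.79 and 7.45 on the control arrays and 8.19, 8.22 and 8.41 on the arrays labelled RNF43 siRNA, so the groups did not overlap and the labelled knockdown was higher. The log2 difference was 0.64 (SE 0.15, limma adjusted p = 0.0188). The call was lost without control siRNA replicate 1, RNF43 siRNA replicate 2 or RNF43 siRNA replicate 3 (adjusted p = 0.0575, 0.0584 and 0.0575). Directions below compare the arrays labelled RNF43 siRNA with the controls, and no loss of RNF43 mRNA was measured.

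To show which factors the control cells expressed, each probe set was placed by its percentile, the share of all 54613 probe sets of the same array with a lower log2 signal. Probe sets bind with different affinity, so percentiles of different genes do not rank transcript amounts. The deposited table used here gives no detection calls. As a measured background served the 107 probe sets of 82 olfactory receptor genes, a family of odorant receptors that liver cells do not use. Their 95th percentile lay at log2 6.32 to 6.94 on the control arrays, which is percentile 54.0 to 60.2 of those arrays. A probe set is called above background if it exceeded that value on all 3 control arrays, as 39% of all probe sets did.

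CEBPA and FOXA1 were above background, and FOXA2, FOXA3, ONECUT1 and PROX1 were not. Of the 12 probe sets 2 were above background on all 3 control arrays, 1 on 1 array and 9 on 0 arrays. Those 9 had mean percentiles of 10.4 to 37.8. The same counts of 2 and 9 were found on the arrays labelled RNF43 siRNA against their own background of 6.15 to 6.37. With probe sets of leukocyte, endothelial, gut, pancreas and other epithelial markers as the background, 2 probe sets were again above it. A signal within this background does not show that a transcript is absent, and MAS5 values are noisy there. The median SD over the control arrays was 0.86 log2 units for probe sets under the filter used for testing and 0.15 for those above it.

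**Figure D1:**
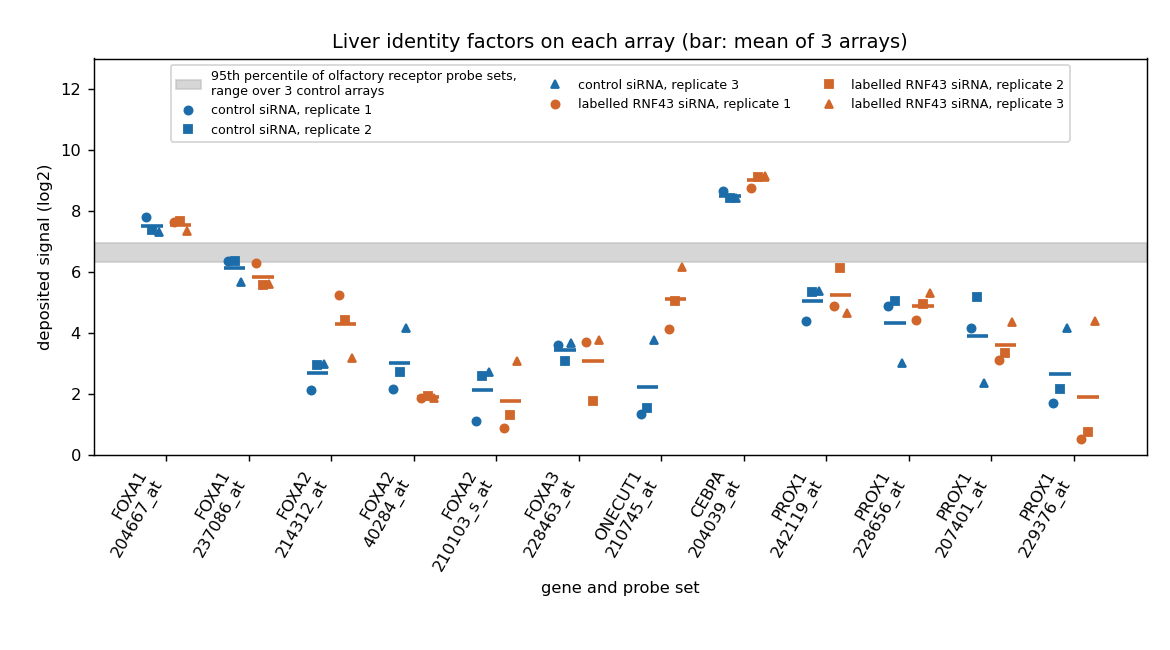
Deposited log2 signal (y axis) of the 12 probe sets of the liver identity factors (x axis) on 3 control siRNA arrays (blue) and 3 arrays labelled RNF43 siRNA (orange), with marker shape for the replicate number and a bar for each group mean. The grey band is the range over control arrays of the 95th percentile of olfactory receptor probe sets, 6.32 to 6.94. CEBPA and the brighter FOXA1 probe set lie above it on all arrays.

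CEBPA, a leucine zipper factor that activates genes of gluconeogenesis, ammonia removal and plasma proteins, was measured by 204039_at. It had the highest percentiles among the 12 probe sets, 73.3 to 75.0 on the control arrays. The log2 signal was 8.64, 8.43 and 8.43 on the control arrays and 8.76, 9.11 and 9.15 on the arrays labelled RNF43 siRNA. All 3 control values lay below all 3 others, with the gap between control siRNA replicate 1 and RNF43 siRNA replicate 1 the narrowest. The group means were 8.5 ± 0.12 and 9.0 ± 0.21 (SD, n = 3 each), a rise of 1.42-fold (95% confidence interval 1.15 to 1.75). The log2 difference of CEBPA was 0.50 (SE 0.14, limma adjusted p = 0.0362). The call rested on nearly every array. It was kept without RNF43 siRNA replicate 1 (adjusted p = 0.0232) and lost without control siRNA replicate 1, 2 or 3 (0.0573, 0.117 and 0.066) or RNF43 siRNA replicate 2 or 3 (0.132 and 0.0994), while the log2 difference stayed between 0.43 and 0.63. It was also lost when every probe set was fitted (adjusted p = 0.0567) and without an intensity trend (0.0707), and its adjusted p spanned 0.0193 to 0.132 over the alternatives run.

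FOXA1, the forkhead pioneer factor also named HNF3 alpha, gave different places for its probe sets. On 204667_at the log2 signal was 7.80, 7.39 and 7.30 on the control arrays and 7.64, 7.67 and 7.35 on the arrays labelled RNF43 siRNA. These values interleave, and each lay above background. The percentiles of 63.8 to 68.0 on the control arrays are the next highest after CEBPA. The log2 difference was 0.06 (SE 0.19, 95% confidence interval -0.37 to 0.48, limma adjusted p = 0.88), so changes from a fall of 0.37 to a rise of 0.48 are within the interval. Without control siRNA replicate 3 the difference was -0.04, and the mean of both FOXA1 probe sets gave -0.12, neither of which passed.

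On the dimmer FOXA1 probe set, 237086_at, the signal was 6.36, 6.35 and 5.68 on the control arrays and 6.30, 5.59 and 5.61 on the others. It exceeded the background on 1 control array and on 1 array labelled RNF43 siRNA. Its percentiles on the control arrays ran from 45.0 to 54.4, around the middle of the array. The log2 difference of -0.30 (SE 0.33, 95% confidence interval -1.05 to 0.46, adjusted p = 0.616) did not pass. The probe sets of FOXA1 thus had mean percentiles of 65.4 and 51.2 on the same arrays, and neither changed past the threshold.

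FOXA2, the related pioneer factor HNF3 beta, was read by 3 probe sets, and each lay in the background on every array. On 214312_at the log2 signal was 2.14, 2.94 and 3.0 on the control arrays and 5.25, 4.42 and 3.19 on the arrays labelled RNF43 siRNA. The groups did not overlap, with the labelled arrays higher. On 40284_at the signal was 2.17, 2.73 and 4.18 against 1.86, 1.94 and 1.86. There the groups did not overlap either, and the labelled arrays were lower. On 210103_s_at, whose suffix marks probes shared by several transcripts, the values of 1.13, 2.60 and 2.71 overlapped those of 0.89, 1.31 and 3.07. The annotation ties 40284_at and 210103_s_at to the same source sequence.

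None of the FOXA2 probe sets reached the filter for testing. In the fit without a filter their log2 differences were 1.59 on 214312_at, -1.14 on 40284_at and -0.39 on 210103_s_at (limma adjusted p = 0.366, 0.564 and 0.895). The probe sets of FOXA2 therefore give no common direction. With 64 added to the linear signal the first difference shrank to 0.28 and the second to -0.12.

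FOXA3, the third FOXA paralogue, known for high levels in adult liver, was read by 228463_at alone. The log2 signal was 3.62, 3.09 and 3.66 on the control arrays and 3.69, 1.78 and 3.78 on the arrays labelled RNF43 siRNA. RNF43 siRNA replicate 2 was the lowest and the other values lay close together. The control percentiles were 18.5 to 22.9, far below the background bound at 54.0. The difference of -0.37 became 0.28 without RNF43 siRNA replicate 2 and had an adjusted p of 0.894 in limma without a filter.

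ONECUT1, the homeodomain factor HNF6, had the largest difference in means among the 12 probe sets. On 210745_at the log2 signal was 1.34, 1.55 and 3.77 on the control arrays and 4.13, 5.04 and 6.17 on the arrays labelled RNF43 siRNA. The groups did not overlap, but the highest control value, on replicate 3, lay close to the lowest of the others. All 6 values lay within the background, with control percentiles of 5.6 to 21.0 and percentiles of 28.3 to 52.1 on the other arrays. The mean over the 6 arrays, 3.67, is under the filter of 5.83, so ONECUT1 was not tested in the main comparison. Without a filter the log2 difference was 2.89 (SE 0.91, 95% confidence interval 0.86 to 4.92) with an unadjusted p of 0.00996 and a limma adjusted p = 0.11. With 64 added to the linear signal the ONECUT1 difference fell to 0.55.

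PROX1, a homeobox factor of hepatoblasts that also works in lymphatic endothelium and restrains bile acid synthesis, was read by 4 probe sets. Its brightest, 242119_at, had 4.39, 5.33 and 5.39 on the control arrays and 4.90, 6.12 and 4.67 on the arrays labelled RNF43 siRNA. On 228656_at the values were 4.89, 5.04 and 3.03 against 4.42, 4.94 and 5.31. On 207401_at they were 4.18, 5.19 and 2.36 against 3.10, 3.35 and 4.36. The groups overlapped on each of these. On 229376_at the values of 1.69, 2.15 and 4.17 overlapped those of 0.53, 0.76 and 4.39, and both arrays numbered 3 were the highest of their groups. The log2 differences of 0.19, 0.57, -0.30 and -0.78 point both ways, with limma adjusted p from 0.779 to 0.922 without a filter. PROX1 was in the background on all 6 arrays by every probe set.

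**Figure D2:**
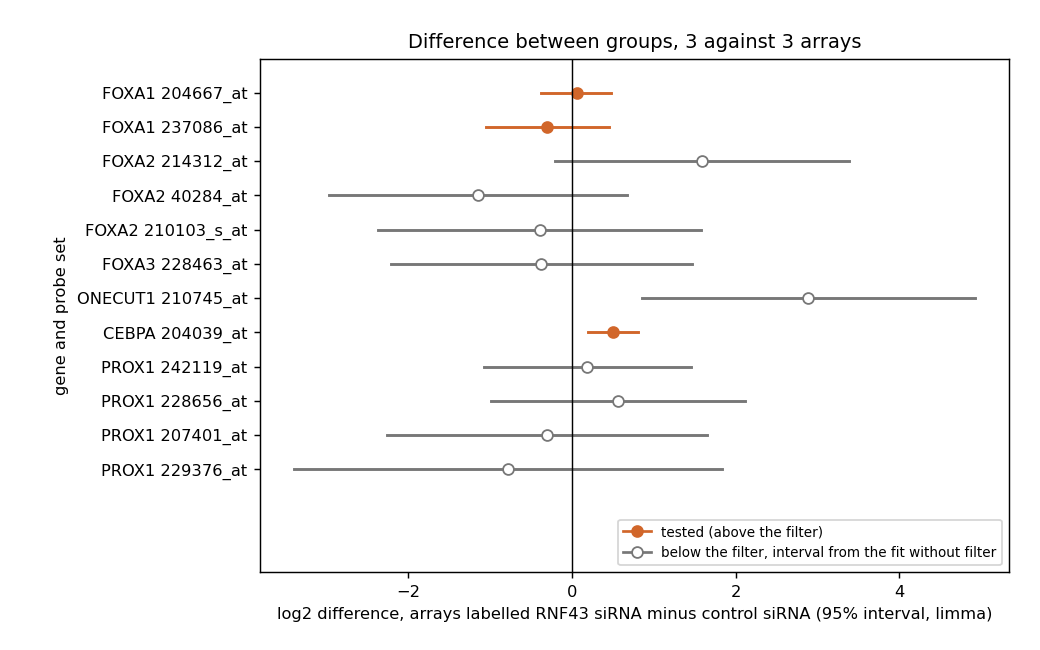
Difference in mean log2 signal between the arrays labelled RNF43 siRNA and the control siRNA arrays (x axis, 3 against 3 arrays) for each probe set of the factors (y axis), with 95% confidence intervals from limma. Filled orange points are the 3 tested probe sets and open grey points the 9 below the filter, whose intervals come from the fit without a filter. CEBPA's interval, on the log2 scale 0.20 to 0.81, lies above 0, as does ONECUT1's, which did not pass after adjustment.

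Over the factors as a set, 3 of 12 probe sets, from 2 of 6 genes, reached the filter and were tested, and 1 was called, CEBPA. Of all 27306 tested probe sets 15.5% were called, 7.9% as higher and 7.55% as lower. A single call among 3 tested probe sets gives no measure of how the factors moved as a group. The 9 untested probe sets belong to 4 genes and are not independent. Of these 9, 3 had groups that did not overlap (2 of FOXA2, in opposite directions, and ONECUT1), against 10.6% of all probe sets below the filter and 22.2% of all probe sets on the array. In the fit without a filter their adjusted p values in limma ran from 0.11 to 0.922, and 1 of the 9 had an unadjusted p under 0.05. In these bulk RNA samples, a change in the share of cells of a type and a change in RNA per cell cannot be told apart.

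The start regions of CEBPA and FOXA3 are shown because these factors share a core promoter element and differ in place on the arrays. The 250 bases before each start are from RefSeq on GRCh38.p14, printed 5′ to 3′ in the gene's direction, with matches to 6 motifs in capitals. The albumin gene ALB, a textbook target of this network, is set beside them. CEBPA lies at chr19:33302535-33302784 on the minus strand, FOXA3 at chr19:45864076-45864325 on the plus strand and ALB at chr4:73404037-73404286 on the plus strand.
CEBPA: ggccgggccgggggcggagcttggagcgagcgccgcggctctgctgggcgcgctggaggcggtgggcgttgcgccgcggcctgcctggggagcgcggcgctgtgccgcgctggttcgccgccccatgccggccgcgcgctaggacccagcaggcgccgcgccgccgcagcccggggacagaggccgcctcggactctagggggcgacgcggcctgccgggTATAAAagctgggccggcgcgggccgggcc
FOXA3: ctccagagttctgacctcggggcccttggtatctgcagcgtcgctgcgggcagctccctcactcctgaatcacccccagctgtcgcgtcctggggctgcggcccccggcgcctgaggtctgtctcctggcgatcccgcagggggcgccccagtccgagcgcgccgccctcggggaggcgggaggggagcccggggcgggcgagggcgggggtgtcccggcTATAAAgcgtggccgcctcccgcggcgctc
ALB: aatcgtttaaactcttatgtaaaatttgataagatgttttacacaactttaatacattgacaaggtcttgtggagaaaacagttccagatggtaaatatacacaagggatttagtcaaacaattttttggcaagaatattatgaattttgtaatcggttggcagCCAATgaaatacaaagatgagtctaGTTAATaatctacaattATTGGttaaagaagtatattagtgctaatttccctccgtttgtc

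CEBPA and FOXA3 each hold 1 match, TATAAA, the core of a TATA box, starting 30 bases before the start, which 10.7% of the 35116 promoters of the table hold on either strand. ALB holds CCAAT, the CCAAT box, on either strand at 86 and 44 bases before the start (32% of promoters), and GTTAAT, part of the HNF1 site, at 61 bases (6.23%). The matches do not overlap. CACGTG, the E-box bound by USF, TGTTTAC, a forkhead core, and TTGCGCAA, a C/EBP palindrome, were searched on both strands too and are held by 6.34%, 2.98% and 0.131% of promoters. A match describes letters only, not a bound site. The windows differ in CpG content, with 41 CpG in CEBPA, 28 in FOXA3 and 3 in ALB, against a median of 11 over all promoters. The FOXA1 window held none of the 6 motifs and the ONECUT1 window CCAAT and CACGTG. FOXA1 with 26 CpG and ONECUT1 with 37 were also above that median, so the 4 member promoters in the table were CpG-rich whether or not the gene stood above background. FOXA2 and PROX1 were not in the table.

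Other hepatocyte factors were mostly above background. Of 41 such factors 34 were matched and 25 of these had a probe set above background on all 3 control arrays, against 2 of the 6 members and 51.9% of all genes. Those above background include GATA4, GATA6, HHEX and TBX3, which act in early liver development, and ONECUT2, the paralogue of ONECUT1, with a mean percentile of 84.2. CEBPB, the acute-phase relative of CEBPA, had a mean percentile of 98.9. The 9 not above background were NR0B2, the corepressor SHP that NR1H4 induces, NR5A2, NR1I3, CREB3L3, MLXIPL, HLF, KLF15, ESRRG and RORA. The list was not limited to factors specific to liver, so its count does not show that the cells keep a hepatocyte program. A gene also counts if any of its probe sets is above background, which favours genes with many. The 34 factors had 117 probe sets, and the 19775 genes had 41091, fewer per gene. Of 26 tested factors, 2 rose and 5 fell on their brightest probe set (limma adjusted p under 0.05), with a median log2 difference of 0.02 against 0 over all 11853 tested genes, of which 19.2% were called (9.77% higher, 9.42% lower). On these probe sets GATA4 rose 1.46-fold, and THRB, a thyroid hormone receptor, fell 1.66-fold, NFIA 1.40-fold and CEBPD 1.33-fold. The CEBPD call was lost without control siRNA replicate 1 (limma adjusted p = 0.0525). Among all tested probe sets of each gene, 1 of 2 of GATA4, 2 of 3 of THRB and 2 of 4 of NFIA were called. NFIB, which rose, and PPARA and NFIL3, which fell, were named after their values were seen. The 7 calls became 4 with RNF43 siRNA replicate 2 or control siRNA replicate 2 left out, and 3 with control siRNA replicate 1 left out. When all probe sets of a gene were averaged, 1 call was left and GATA4 changed sign (-0.21). That average takes in untested GATA4 probe sets within the background, with log2 differences of -1.15, -0.68 and -0.12. The 2 tested GATA4 probe sets were both higher, at 0.55 (called) and 0.35 (not called). The GATA4 call on the brightest probe set was kept whichever of the 6 arrays was left out.

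The genes that the members act on were mostly in the background. Over all genes 51.9% were above it, and 19.2% of all tested genes were called. Of 9 measured FOXA targets 3 were above it on the control arrays, AFP, CPS1 and IGFBP1, and of 10 CEBPA targets 1, CPS1, the first enzyme of the urea cycle. CPS1 was 1.47-fold higher on the arrays labelled RNF43 siRNA (0.56 ± 0.06 SE on the log2 scale, limma adjusted p = 6.86e-04). Being on both lists, it was the sole CEBPA target called of 2 tested and the sole FOXA target called of 3 tested. Of 21 measured HNF4A targets 2 were above background, APOM and F12, and 0 of 3 tested were called. Of 17 measured genes induced by NR1H4, 4 were above background and 1 of 4 tested was called, complement C3, 1.18-fold lower (limma adjusted p = 0.0451). The C3 call was lost whichever of the 6 arrays was left out (0.0611 to 0.142). None of the 3 genes that NR1H4 represses was above background.

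The label HepG2 was checked against hepatocyte markers. Of 20 measured, 3 were above background on all 3 control arrays, AFP, CPS1 and RBP4, where 4 of the 82 olfactory receptor genes were. ALB by its brightest probe set read log2 4.31, 4.43 and 3.82 on the control arrays, TTR 3.56, 5.94 and 5.77, APOA1 3.48, 6.03 and 6.01 and SERPINA1 4.62, 4.43 and 4.91. All of their probe sets were within the background. AFP, the fetal serum protein alpha-fetoprotein, read 6.98, 7.13 and 6.91 on the control arrays and 6.12, 6.45 and 6.65 on the others, a difference that did not pass (adjusted p = 0.107). Of the 3 markers tested, 2 were called higher and 0 lower, where 9.77% of all tested genes were called higher. They are CPS1, given above, and RBP4, the retinol carrier of plasma. RBP4 on its brightest probe set read 10.62, 10.44 and 10.77 on the control arrays and 11.04, 11.26 and 11.31 on the others, without overlap. That is 1.51-fold higher (limma adjusted p = 0.00596, but 0.488 when its probe sets were averaged).

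Markers of fibroblasts and stellate cells were above background in 8 of 12 genes, among them VIM, LUM and COL1A1. COL1A2, PDGFRA, PDGFRB and THY1 of the same list had no probe set above background on all 3 control arrays. Leukocyte and endothelial markers were above background in 0 of 6 and 0 of 7 genes. Of the 8 fibroblast and stellate cell markers tested, 4 fell (COL3A1, ACTA2, FAP and DCN) and 0 rose, where 9.42% of all tested genes fell. COL1A1, LUM, VIM and TWIST1 did not pass (limma adjusted p = 0.221, 0.123, 0.255 and 0.857). When probe sets were averaged per gene, 1 call was left, FAP (limma adjusted p = 0.00629), and DCN did not pass (0.551). Averaged with their probe sets in the background, ACTA2 and COL3A1 lay under the filter, so they were not tested there. COL3A1 was called lower on 3 of its 3 tested probe sets. The summed linear signal of the 12 genes was 31726 to 33191 on the control arrays and 27216 to 29088 on the others. VIM and LUM, neither of them called, made up 81.8% of the control sum and 62.4% of its fall. Without them the sum of the other 10 genes was 5387 to 6266 on the control arrays and 3992 to 4390 on the others. Of bile duct and progenitor markers 4 of 8 were above background. Of 5 tested, KRT7 and CD24 rose and SPP1 fell, where 9.77% of all tested genes rose and 9.42% fell. KRT7 was called on 1 of 3 tested probe sets and not when its probe sets were averaged. CD24 was called on 6 of 6 tested probe sets and in 17 of 18 alternatives, but not without an intensity trend (limma adjusted p = 0.0559). EPCAM and SOX9 did not pass (limma adjusted p = 0.134 and 0.45). KRT19 of the same list was at a mean percentile of 11.8. The part of these cell markers in the CEBPA result was not tested.

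**Figure D3:**
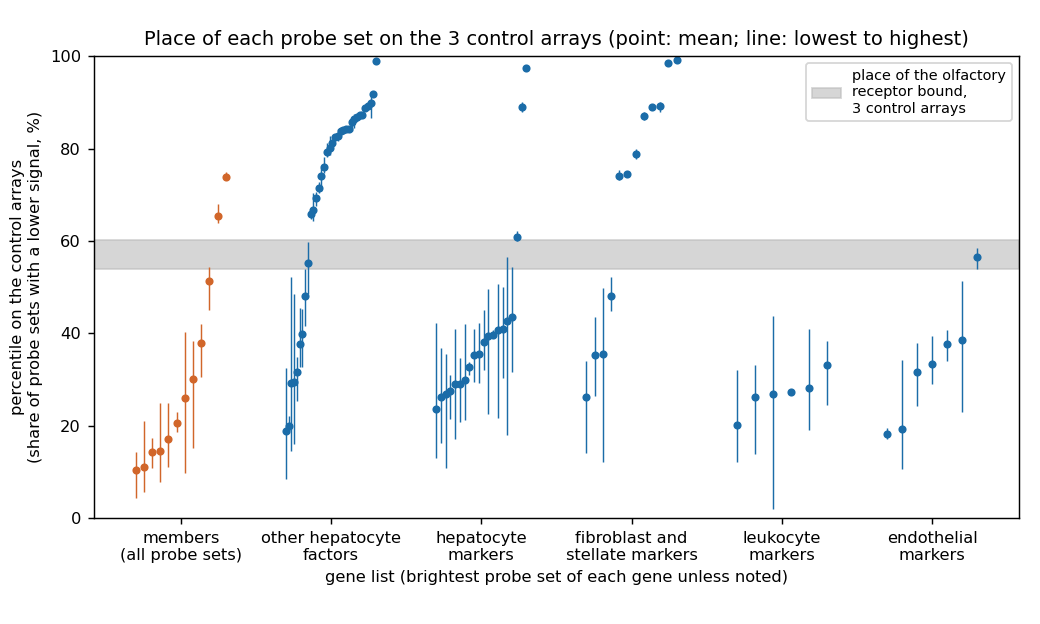
Percentile on the control siRNA arrays (y axis, share of probe sets of the same array with a lower signal) for each probe set of the members (orange) and the brightest probe set of each gene in 5 other lists (blue), ordered within each list. Points are means and lines run from the lowest to the highest of 3 arrays, and the grey band marks the olfactory receptor bound, at 54.0 to 60.2. Most hepatocyte markers lie below the band, most other hepatocyte factors above it.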

How the data were processed

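Total RNA (6 µg per sample, per the labels' protocols) was hybridised to Affymetrix arrays. The deposited values are log2 signals. The authors used MAS5, per the submitters' processing notes, and the sources used here give neither version nor scaling target. MAS5 subtracts a mismatch signal, so dim values are noisy, and 391 to 628 values per array lay at 0, a floor. Linear means trimmed by 2% were 497.03 to 497.23, so arrays were already scaled, and median log2 signals were 5.89 to 6.02. No 2 arrays were identical. Values were used as given.

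Probe sets were named by the platform annotation, with symbols updated through RefSeq. The 27306 probe sets with a mean over 6 arrays in the upper 50% (log2 above 5.83) were fitted with limma 3.58.1 in R 4.3.3 (lmFit, then eBayes with trend). Tests were two-sided and called at a Benjamini-Hochberg adjusted p under 0.05 over all of them. Lists were read on each gene's brightest probe set, and carry counts and medians only. The steps were tested on simulated data.

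The members and lists were chosen with earlier results of these data known. Named genes are all members, RNF43, up to 4 called genes with the smallest p in the factor and target lists, called markers, and ALB, AFP, APOA1, TTR and SERPINA1. Others named (NFIB, PPARA, NFIL3, uncalled fibroblast and bile duct markers, and genes given only as above or within background) were chosen after their values were seen. Alternatives changed the normalization, the filter, signal added, the variance model, how probe sets stand for genes and a replicate block, and left out each array. Leaving out both arrays numbered 3 was added after the data were seen. The number of arrays limits the precision.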

Additional observations from a re-analysis of the deposited data

How the results depend on the processing

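Over all alternatives run, the CEBPA difference stayed higher, at 0.39 to 0.63, and was called in 10 of 18. The count of called member probe sets, 1, became 0 with no filter, with no intensity trend and without both arrays numbered 3, and lay between 0 and 1 without 1 array. RNF43 kept its direction and was called in 13 of 17 alternatives, with differences of 0.55 to 0.72 without 1 array and 0.48 (adjusted p = 0.0673) without both arrays numbered 3. FOXA1 on 204667_at lay between -0.04 and 0.21 without 1 array and at -0.12 when its probe sets were averaged, and was called in 0 of 17. The number of probe sets above background, 2, was the same in 4 of 4 alternatives. Percentiles depended on the probe sets ranked: among those naming 1 gene CEBPA stood at 69.3 and FOXA1 on 204667_at at 59.9, and among the brightest of each gene at 59.6 and 51.4, from 73.9 and 65.4.

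The 4219 called probe sets became 2684 genes with the brightest probe set of each gene, 1587 genes with probe sets averaged per gene, 2787 with no intensity trend, and 2238 to 4465 without 1 array. The replicate block gave 6370 called probe sets. Arrays sharing a number deviated together with r = 0.19, 0.08 and 0.31 for numbers 1, 2 and 3, across probe sets. Control replicate 2 correlated best with RNF43 siRNA replicate 1 (0.13). Arrays numbered 3 had r of -0.26 to -0.1 with arrays of another number in the other group. Deviations from a group mean cancel within the group, so the r of 0.31 already forces a negative balance there. The negative values are thus no separate sign that the arrays numbered 3 stand apart. The labels give no pairing, and the numbers were not taken as pairs. The block gave CEBPA the same difference of 0.50 (adjusted p = 0.0251). With probe sets averaged per gene, the calls were 1 of other hepatocyte factors, 1 of hepatocyte markers and 1 of fibroblast and stellate cell markers, and GATA4 was at -0.21. These averages take in probe sets within the background, and with them ACTA2 and COL3A1 lay under the filter and were not tested. Other hepatocyte factors called were 3 to 9 without 1 array. The causes of these changes were not tested. Signals near background limit FOXA2, FOXA3, ONECUT1 and PROX1, whose differences in 9 probe sets have no reliable size.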
